A study of Homo sapiens with 8 samples.

Results

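The response to CSE1L silencing that SK-OV-3 and TOV-21G shared was described for the genes that moved in the same direction in each of 4 same-numbered comparisons. A same-numbered comparison set the silenced array of an experiment against the control array carrying the same experiment number in the same line. Of 9377 genes and unnamed probes tested, 2750 met this rule, 1350 of them higher and 1400 lower after silencing. Both are established ovarian cancer cell lines. The 4 groups were SK-OV-3 and TOV-21G cells given a scrambled control siRNA (siCTR) or an siRNA against CSE1L (siCSE1L), with RNA taken 72 h after transfection. Each group held 2 arrays, numbered as experiments 1 and 2. Every cell, controls included, had thus been transfected with an siRNA. A single siCSE1L label covers the silenced arrays, and the labels give neither its sequence nor how many siRNAs it held. Nothing in the labels says whether the 2 arrays of a group came from separate cultures, so the spread among arrays may be technical. In the fit across both lines, the p-values reflect this spread together with any difference in the change between lines.

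CSE1L, also called CAS or exportin-2, carries importin alpha back from the nucleus to the cytoplasm together with RanGTP, which frees importin alpha for a new round of import of proteins that bear a classical nuclear localisation signal. It also binds chromatin and is often present in extra copies or at a high level in epithelial tumours. A transcript level measured on bulk RNA cannot tell apart fewer cells that express a gene and less RNA of it per cell.

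The promoters of 2 genes that rose and 2 that fell in both lines, those with the smallest p among genes that met the rule for named genes and had a RefSeq promoter entry, are shown to place the genes named most often in the results. RASSF1 (chr3:50337401-50337700, minus strand) and CPA4 (chr7:130292911-130293210, plus strand) rose. CDC25A (chr3:48188368-48188667, minus strand) and CYP4F11 (chr19:15934818-15935117, minus strand) fell. Each sequence is RefSeq's for GRCh38.p14, 300 bases long, written 5′ to 3′ on the gene's strand from 250 bases before the start site to 50 bases after it. Capitals mark the motifs found, which are the CCAAT box (CCAAT, or ATTGG on the other strand) and, in RASSF1 alone of the 4, an E2F core (GGCGGGA, or TCCCGCC on the other strand). Only these exact letters were searched for, so other forms of an E2F site are not marked in any of the 4.
RASSF1: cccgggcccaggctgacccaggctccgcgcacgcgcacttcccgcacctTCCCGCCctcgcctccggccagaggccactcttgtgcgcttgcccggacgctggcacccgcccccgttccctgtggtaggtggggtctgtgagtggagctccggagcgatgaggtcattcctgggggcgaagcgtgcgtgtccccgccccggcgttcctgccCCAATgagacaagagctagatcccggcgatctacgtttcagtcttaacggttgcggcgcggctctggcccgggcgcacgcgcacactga
CPA4: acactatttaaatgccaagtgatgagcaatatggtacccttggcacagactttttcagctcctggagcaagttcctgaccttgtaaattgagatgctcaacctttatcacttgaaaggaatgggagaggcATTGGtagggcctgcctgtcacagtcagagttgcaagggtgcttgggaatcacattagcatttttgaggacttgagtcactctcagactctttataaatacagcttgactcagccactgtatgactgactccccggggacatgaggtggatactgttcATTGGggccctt
CDC25A: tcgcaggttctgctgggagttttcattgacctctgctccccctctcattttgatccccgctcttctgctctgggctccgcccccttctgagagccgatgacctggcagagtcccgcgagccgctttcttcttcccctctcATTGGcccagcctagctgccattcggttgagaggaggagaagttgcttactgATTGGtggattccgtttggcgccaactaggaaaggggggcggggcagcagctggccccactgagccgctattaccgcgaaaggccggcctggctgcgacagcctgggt
CYP4F11: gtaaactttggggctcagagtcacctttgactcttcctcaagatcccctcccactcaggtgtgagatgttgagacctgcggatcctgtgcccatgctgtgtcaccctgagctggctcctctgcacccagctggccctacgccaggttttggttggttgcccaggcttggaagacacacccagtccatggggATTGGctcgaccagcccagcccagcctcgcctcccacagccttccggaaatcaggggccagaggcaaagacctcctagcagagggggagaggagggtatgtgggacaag
The CCAAT box of RASSF1 began 39 bases before the start site and its E2F core 201 bases before it. The window lies inside the span of the RASSF1 gene in the same annotation, at a start site downstream of the outermost one, and whether it belongs to the transcript that the array probe reads was not determined. CDC25A held a CCAAT box on the minus strand of the printed sequence at 110 and again at 58 bases before the start site, and CYP4F11 held one at 59.

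The same motifs were common among all promoters of this length. At least 1 CCAAT box was held by 35.7% of 27305 promoters, by 37.6% of the 6931 tested genes with a promoter, by 37.7% of 992 genes higher in all 4 comparisons and by 41.3% of 1074 lower in all 4. The E2F core was held by 15.5% of all promoters and by 26.1%, 27.7% and 27.9% of the same 3 sets. A cell cycle homology region (TTTGAA) was held by 15.4% of all promoters, 9.02% of tested genes, 6.35% of the higher and 11.8% of the lower genes. The E-box (CACGTG) was held by 10.6% of tested genes, 11.4% of the higher and 9.78% of the lower, against 7.43% of all promoters. A cAMP response element core (TGACGTC) was held by 5.61%, 5.65% and 5.40% of these sets in turn, against 3.63% of all promoters. Each motif was searched on both strands and may overlap another. A match is a description of letters and was not tested.

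Between 9206 and 9820 of 24531 probes (37.5% to 40.0%) were detected on an array, and the number of arrays limits the precision. The epithelial markers KRT8, KRT18 and PAX8 were detected on all 8 arrays, KRT19 on 6, EPCAM and MUC16 on none, and CDH1 only on the 2 control arrays of TOV-21G. ERBB2, which is amplified in SK-OV-3, had a log2 intensity of 15.005 to 15.7 there and of 11.4 to 11.8 in TOV-21G. Of the other amplicon markers, STARD3 was at 9.79 to 10.95 in SK-OV-3 and 7.10 to 8.11 in TOV-21G. GRB7 overlapped between the lines, at 7.91 to 10.30 in SK-OV-3 and 7.85 to 9.15 in TOV-21G. Of the 2 clear cell markers measured, GPX3 was detected only on the 4 TOV-21G arrays and ANXA4 on none. Among markers of other cell types, PTPRC, CD3E, LYZ, PECAM1, VWF, CDH5, COL1A2, COL3A1, LUM and PDGFRB were detected on 0 arrays. CD14 was detected on 5 arrays, COL1A1 on 8 and DCN on 4. These 3 were the tested ones of the leukocyte and fibroblast markers, and each was higher in all 4 comparisons; their part in the results was not tested.

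CSE1L itself was lower in both lines. In SK-OV-3 its log2 intensity was 12.05 and 12.58 on the control arrays of experiments 1 and 2, and 10.52 and 9.001 on the silenced arrays. In TOV-21G it was 13.04 and 11.67 on the control arrays and 8.81 and 7.74 on the silenced arrays. Silenced and control arrays did not overlap in either line. The 4 same-numbered changes were -1.53 and -3.58 in SK-OV-3 and -4.22 and -3.93 in TOV-21G, so experiment 1 in SK-OV-3 had the least silencing. Across lines, limma with cell line as a factor gave a shared log2 change of -3.31 (SE 0.49, adjusted p = 0.0369). The call ended with the replicate pairs as a block (adjusted p = 0.0667) and when 1 array was left out, over a range of 0.0240 to 0.140, except without the SK-OV-3 silenced array of experiment 1, which gave the lowest of these values. An unnamed probe had a shared change of -3.30 (adjusted p = 0.0314), close to that of CSE1L in size.

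Most changes of the genes that met the rule were small. A rule of sign alone also keeps genes whose signs agree by chance, and their number was not tested. The 2750 genes made up 29.3% of those tested, with 14.4% higher and 14.9% lower. Of these, 2148 (78.1%) were detected on all 8 arrays, against 71.7% of all genes tested. The median change of the genes higher in all 4 was 0.34 and 0.40 in SK-OV-3 and 0.46 and 0.49 in TOV-21G, for experiments 1 and 2. The median of the lower genes was -0.33 and -0.35 in SK-OV-3 and -0.45 and -0.48 in TOV-21G. A shared change of at least 2-fold was seen for 77 higher and 95 lower genes, and in all 4 comparisons at once for 11 and 7. The median control level was 9.39 on the log2 scale for the higher genes and 9.99 for the lower genes, against 9.26 for all genes tested. Near the limit of the rule, RUFY3 was kept with a change of 0.00049 in SK-OV-3 experiment 2 and PFKM with -0.00074 in TOV-21G experiment 2, while HERC1 and AGBL5 were left out by a change of 0 in 1 comparison.

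The comparisons within TOV-21G resembled each other more than those within SK-OV-3 or between lines. Both experiments gave the same sign for 5594 genes (59.7%) in SK-OV-3 and for 6786 (72.4%) in TOV-21G. Where each line had a consistent sign, 4055 genes in all, the lines moved alike for 2750 (67.8%) and in opposite directions for 1305 (32.2%). Across the 9377 genes, which are not independent replicates, the changes of experiments 1 and 2 had a Pearson correlation of 0.29 in SK-OV-3 and 0.67 in TOV-21G. Changes from different lines correlated at 0.18 to 0.22, and the 2 line means at 0.28. The mean change was larger in TOV-21G for 1683 of the 2750 genes (61.2%). When every silenced array of a line had to lie beyond both of its control arrays, in both lines, 1525 genes remained (16.3%), 757 higher (8.07%) and 768 lower (8.19%). Scaling each array to a common median, in place of quantile normalization, shifted the median of all genes from -0.01 to -0.11 and gave 649 genes higher (6.92%) and 1860 lower (19.8%) in all 4 comparisons.

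**Figure D1:**
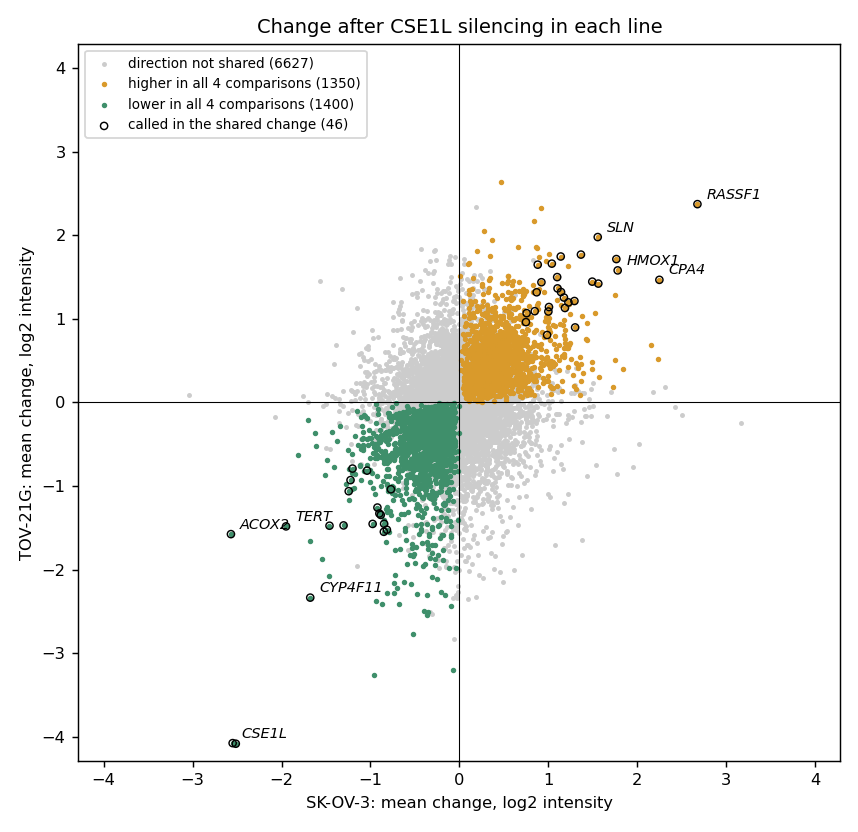
Mean log2 change after CSE1L silencing in SK-OV-3 (x axis) and TOV-21G (y axis), 1 point per gene or unnamed probe. The 1350 orange points were higher and the 1400 green points lower in all 4 same-numbered comparisons, the 6627 grey points were neither, and black rings mark the 46 called genes, which lie away from both axes.

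With cell line as a factor, limma called 46 genes and unnamed probes at an adjusted p below 0.05 (0.491% of those tested), 27 higher (0.288%) and 19 lower (0.203%). At an unadjusted p below 0.05 the count was 1707 (18.2%). All 46 moved the same way in all 4 comparisons, and in each line both silenced arrays lay beyond both control arrays; both properties use the values of the test itself and add nothing to it. Of the 46, 37 carried a gene symbol, 22 higher and 15 lower. The shared change of the 46 ranged in size from 0.85 to 3.31 on the log2 scale and was at least 2-fold for 39. Among those just inside the threshold were SHFL (adjusted p = 0.0475) and RAB6B (0.0490), and just outside it GLYCTK (0.0511) and TOX2 (0.0518).

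The count of calls was lower without any 1 of the 8 arrays. It was 2 and 1 for the SK-OV-3 control arrays of experiments 1 and 2, 21 and 1 for the SK-OV-3 silenced arrays, 4 and 1 for the TOV-21G control arrays, and 1 and 1 for the TOV-21G silenced arrays. With the same-numbered arrays as a block, 9 were called (6 higher, 3 lower), all among the 46: RASSF1, SLN, H2BC5, CTSF, HMOX1, CYP4F11, TERT, LRRN4 and 1 unnamed probe. Median scaling gave 21 higher and 48 lower calls, so 30.4% of calls were higher, against 58.7% with quantile normalization. In that setting 37 of the 46 calls were kept, against 33 with no detection filter, 38 on the authors' normalized values and 41 without background correction. Among those that ended with no filter were CSE1L, HMOX1, CTSF and TERT, at adjusted p values of up to 0.0515. The direction of all 46 was kept in each of the 19 alternatives that tested them, or for 29 of 29 where detection on all 8 arrays was required. Leaving out 1 array could not reverse a direction, since in each line both silenced arrays lay beyond both controls. The block, 4 group means, threshold, spread, filter and all-probe settings kept the same estimates. Direction could thus change only where the intensities were processed differently.

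**Figure D2:**
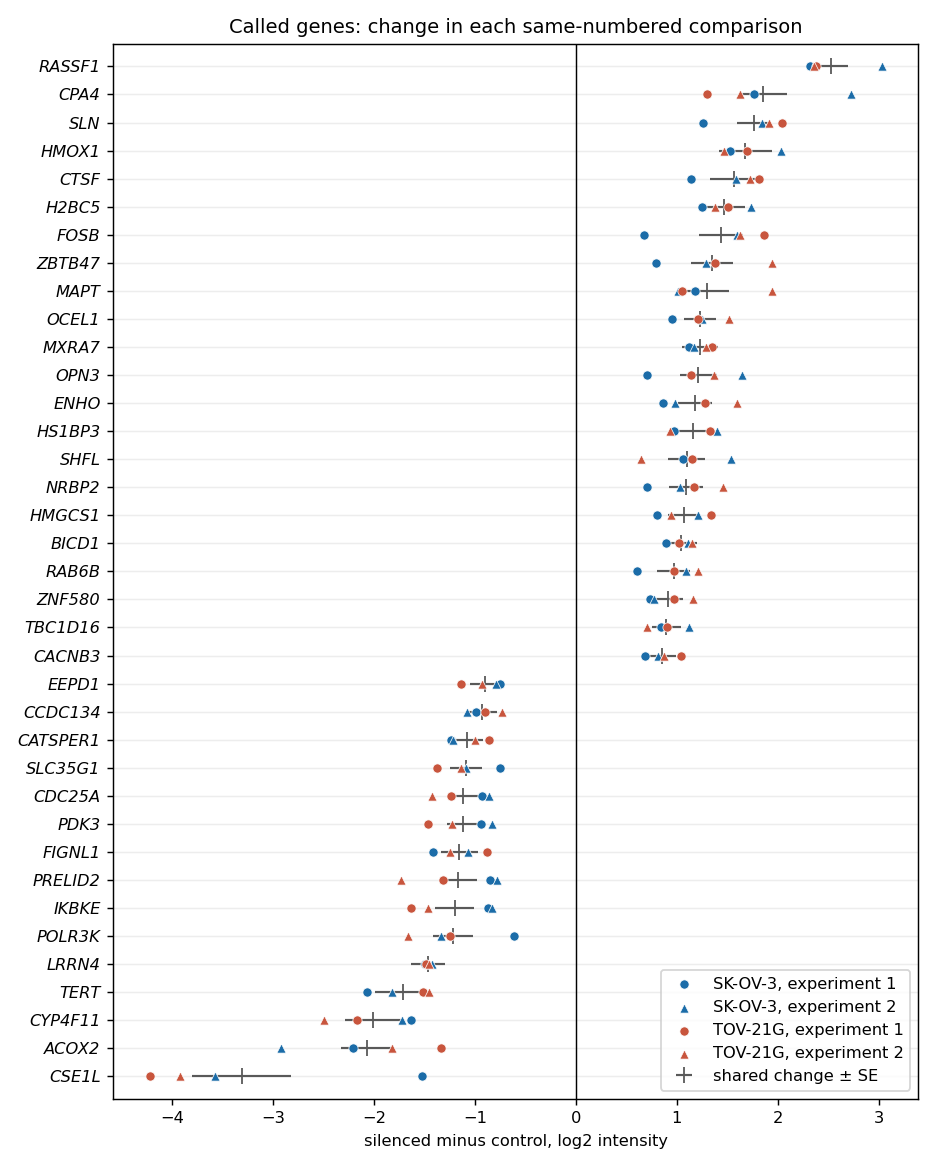
Silenced minus control log2 intensity (x axis) of the 37 called named genes (y axis) in each same-numbered comparison. Blue marks SK-OV-3 and red TOV-21G, circles experiment 1 and triangles experiment 2, and grey bars the shared change ± SE; RASSF1 lies between 2.32 and 3.03 and no gene has points on both sides of 0.

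RASSF1, a Ras association domain protein and tumour suppressor whose promoter is often methylated in cancers, rose the most of the called genes. In SK-OV-3 its log2 intensity was 8.90 and 8.82 on the control arrays and 11.22 and 11.85 on the silenced arrays. In TOV-21G it was 9.35 and 9.37 on the control arrays and 11.73 and 11.73 on the silenced arrays. The gap between silenced and control arrays was thus several times the spread within any group. Its shared log2 change was 2.52 (SE 0.18, adjusted p = 0.00166), or 5.75-fold. It kept its call without each of the 8 arrays (adjusted p 0.00339 to 0.0192), with the pairs as a block (0.0227) and in all 19 alternatives, where its change lay between 2.19 and 2.62. Both other RASSF1 probes measured were higher in all 4 comparisons, with shared changes of 2.45 and 2.42. In the fit with 4 group means, RASSF1 was the single gene called in SK-OV-3 alone (2.68, adjusted p = 0.0477), and its change in TOV-21G was 2.37 (0.0152). Of the 13 tested members of the RASSF family and Hippo pathway list, it was the only one called. STK3, the Hippo kinase MST2, had a shared change of 0.998 (adjusted p = 0.131), and its homologue STK4 one of -0.26 (0.363), each with the same sign in all 4 comparisons.

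**Figure D3:**
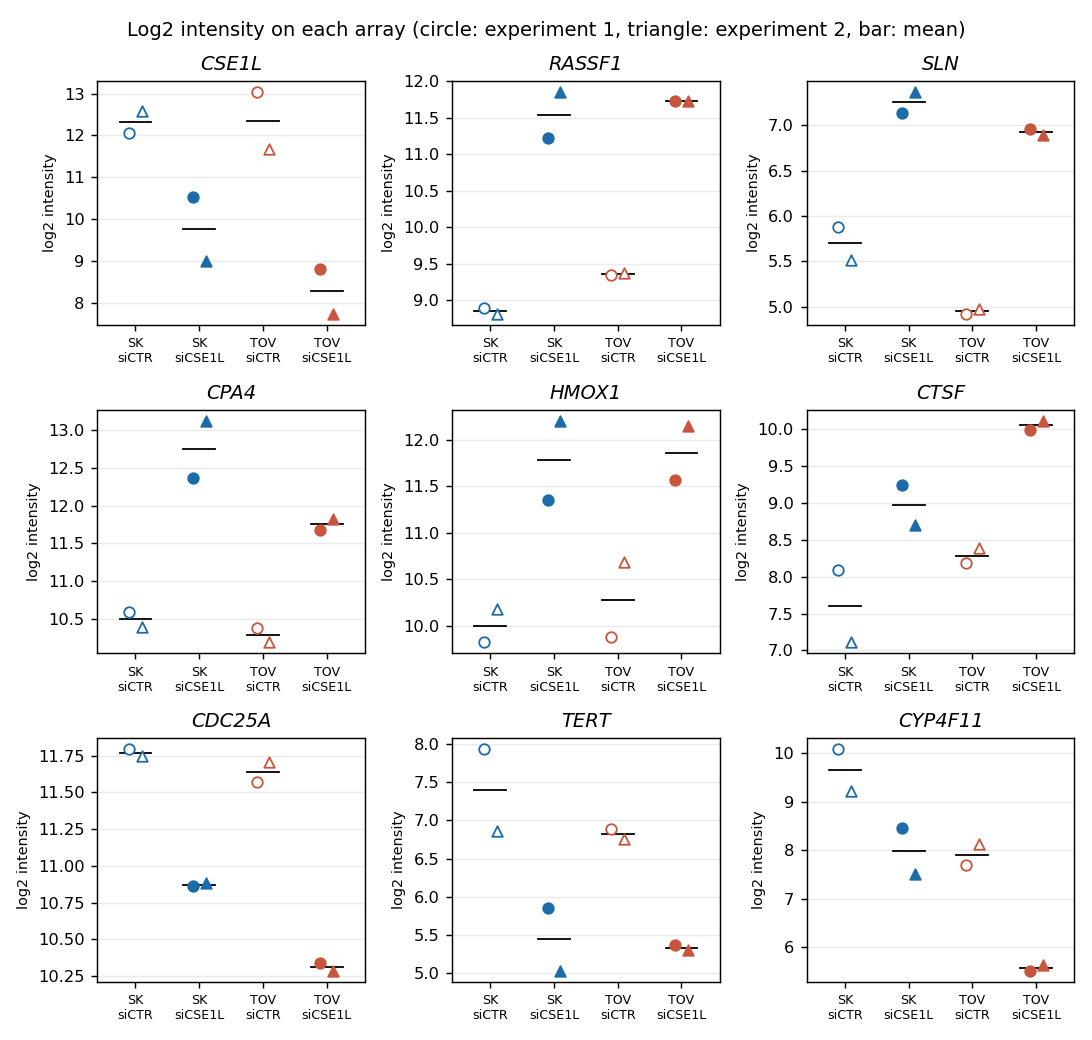
Log2 intensity (y axis, scaled to each gene) on each of the 8 arrays for 9 called genes, by line and siRNA (x axis). Open symbols are siCTR and filled symbols siCSE1L, circles experiment 1 and triangles experiment 2, and bars the mean of 2 arrays; in each panel and line the silenced arrays lie wholly above or wholly below the controls.

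Several called genes act in the cell cycle, at telomeres, in DNA repair or in chromatin, and most of those fell. CDC25A, the phosphatase that activates cyclin-dependent kinases at entry into S phase, had log2 intensities of 11.80 and 11.75 in SK-OV-3 controls and 10.86 and 10.88 in silenced cells. In TOV-21G the values were 11.57 and 11.71 in controls and 10.34 and 10.29 in silenced cells. The replicates lay close together and the groups far apart, and CDC25A fell by 1.11 on the log2 scale (SE 0.15, adjusted p = 0.0369). TERT, the catalytic subunit of telomerase, was at 7.93 and 6.86 in SK-OV-3 controls, 5.86 and 5.04 in silenced SK-OV-3, 6.88 and 6.76 in TOV-21G controls and 5.37 and 5.31 in silenced TOV-21G. It was undetected on every silenced array, so its level was at least 1.68-fold lower in SK-OV-3 and at least 1.24-fold lower in TOV-21G (adjusted p = 0.0390). Such bounds set the mean of the brighter group against the lowest signal detected on each array of the other group. The gene's own signal was used where it was higher. FIGNL1, an ATPase of homologous recombination, fell by 1.15. EEPD1, a nuclease that acts at stalled replication forks, fell by 0.90 in the fit. On the same scale EEPD1 fell by at least 1.92-fold in TOV-21G, where it was undetected after silencing. Without background correction its shared log2 change was only -0.44 (limma, adjusted p = 0.0745). POLR3K, a subunit of RNA polymerase III, fell by 1.21.

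Other nuclear genes rose. The histone gene H2BC5, which unlike most histone genes also makes polyadenylated transcripts, was at 8.25 and 8.11 in SK-OV-3 controls and 9.50 and 9.84 in silenced cells, and at 11.12 and 11.79 in TOV-21G controls and 12.63 and 13.17 in silenced cells. Its levels differed between lines by more than its changes did. Near-identical H2B genes could share its probe's signal, which was not tested. The shared change was 1.47 (SE 0.21, adjusted p = 0.0369; 0.0351 with the block). The zinc finger genes ZBTB47 and ZNF580 rose by 1.35 and 0.91 in the fit. ZBTB47 was undetected in SK-OV-3 controls, which bounds its rise there at 1.28-fold or more. For the 8 genes CDC25A, TERT, FIGNL1, EEPD1, POLR3K, H2BC5, ZBTB47 and ZNF580, leaving out any 1 array ended every call (adjusted p 0.0507 to 0.158). With the block, TERT (0.0313) and H2BC5 kept theirs, and the other 6 had an adjusted p of up to 0.0784. On the authors' normalized values TERT changed by -0.57 (adjusted p = 0.0757), FIGNL1 by -0.67, EEPD1 by -0.36 (0.144) and ZBTB47 by 0.63 (0.0573), and with median scaling ZNF580 had an adjusted p of 0.102.

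Genes of lipid and energy metabolism moved both ways. HMGCS1, the cytosolic synthase that makes HMG-CoA for cholesterol, rose from 8.60 and 8.56 to 9.41 and 9.77 in SK-OV-3, and from 8.72 and 8.74 to 10.06 and 9.69 in TOV-21G. The shared change was 1.07 (SE 0.16, adjusted p = 0.0369). CYP4F11, a cytochrome P450 that hydroxylates fatty acids, fell from 10.09 and 9.23 to 8.46 and 7.51 in SK-OV-3, and from 7.69 and 8.12 to 5.52 and 5.63 in TOV-21G. Its silenced TOV-21G arrays were below detection, which makes the fall there at least 2.63-fold, and the fitted shared change was -2.01 (SE 0.28, adjusted p = 0.0369; 0.0313 with the block). Close homologues in the CYP4F family could share this signal, which was not tested. ACOX2, the peroxisomal oxidase of branched-chain fatty acids and bile acid intermediates, was at 7.15 and 7.78 in SK-OV-3 controls and 6.23 and 6.82 in TOV-21G controls. On all 4 silenced arrays ACOX2 lay between 4.85 and 4.996 and was undetected, at least 1.76-fold lower in SK-OV-3 and 1.01-fold in TOV-21G (adjusted p = 0.0314). In TOV-21G, 1 control array was itself undetected for ACOX2.

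PDK3, a kinase that inhibits pyruvate dehydrogenase, fell by 1.12 (SE 0.16, adjusted p = 0.0369). PRELID2, a member of the PRELI-like family of mitochondrial intermembrane space proteins, fell by 1.17 in the fit, but was undetected on every SK-OV-3 array. ENHO, which encodes the peptide adropin, was undetected on all control arrays and detected on all silenced ones, at least 1.53-fold higher in SK-OV-3 and 1.37-fold in TOV-21G. Among HMGCS1, CYP4F11, ACOX2, PDK3, PRELID2 and ENHO, the block left only CYP4F11 called (the others up to 0.0813). Calls ended without any 1 array, with adjusted p values of up to 0.149, except that CYP4F11 (0.0240) and ENHO (0.0438) kept theirs without the SK-OV-3 silenced array of experiment 1 and ACOX2 (0.0250) without the TOV-21G control array of experiment 1. On the authors' normalized values the fitted changes shrank to -0.72 for ACOX2, -1.08 for CYP4F11, -0.73 for PDK3, -0.49 for PRELID2 (adjusted p = 0.115) and 0.44 for ENHO (0.0839). HMGCS1 had an adjusted p of 0.0702 with median scaling.

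The called genes taken next encode proteases and proteins of stress and immune signalling. CPA4, a secreted carboxypeptidase, was at 10.60 and 10.39 in SK-OV-3 controls and 12.37 and 13.12 in silenced cells, and at 10.38 and 10.20 in TOV-21G controls and 11.68 and 11.82 in silenced cells. All silenced arrays stood above all controls, and the shared change was 1.86 (SE 0.23, adjusted p = 0.0314). HMOX1, the inducible heme oxygenase, was at 9.82 and 10.18 in SK-OV-3 controls, 11.35 and 12.21 in silenced SK-OV-3, 9.88 and 10.68 in TOV-21G controls and 11.57 and 12.15 in silenced TOV-21G. Experiment 2 was the higher of the pair in each of these groups, and the shared change was 1.68 (SE 0.26, adjusted p = 0.0390; 0.0313 with the block). CTSF, the lysosomal cysteine protease cathepsin F, went from 8.09 and 7.11 to 9.24 and 8.70 in SK-OV-3 and from 8.18 and 8.39 to 9.99 and 10.12 in TOV-21G. Its shared change was 1.57 (SE 0.24, adjusted p = 0.0390; 0.0395 with the block).

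FOSB, a subunit of the AP-1 transcription factor, rose by 1.44 (SE 0.22, adjusted p = 0.0390), from 6.13 to 6.88 over the control arrays to 7.56 to 8.23 over the silenced ones. It was detected on 2 of the 4 control arrays and on all 4 silenced ones. SHFL, an interferon-induced inhibitor of ribosomal frameshifting, rose by 1.10. IKBKE, an IkB kinase-related kinase of innate immune signalling, fell by 1.199; its level was 7.48 to 8.65 on SK-OV-3 arrays and 9.72 to 11.35 on TOV-21G arrays. The block kept HMOX1 and CTSF among these 6 genes and gave CPA4 an adjusted p of 0.0667 and FOSB, SHFL and IKBKE one of 0.0784. Without any 1 array each call ended, with adjusted p values of up to 0.160, except that CPA4 (0.0438) and FOSB (0.0281) kept theirs without the SK-OV-3 silenced array of experiment 1. On the authors' normalized values FOSB changed by 0.69 and SHFL by 0.72. SHFL had an adjusted p of 0.0782 with median scaling.

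Genes of calcium handling, membranes and vesicle traffic followed. SLN encodes sarcolipin, a small inhibitor of the SERCA calcium pump known from muscle. It was undetected on all 4 control arrays, at 5.88 and 5.52 in SK-OV-3 and 4.92 and 4.98 in TOV-21G, and detected on all 4 silenced arrays, at 7.14 and 7.37 in SK-OV-3 and 6.96 and 6.89 in TOV-21G. The level was thus at least 1.47-fold higher in SK-OV-3 and 1.34-fold in TOV-21G, and the adjusted p was 0.0104, or 0.0345 with the block. CACNB3, a beta subunit of voltage-gated calcium channels, rose by 0.85, and CATSPER1, a sperm calcium channel subunit, was at least 1.95-fold lower in silenced SK-OV-3. Without background correction the shared log2 change of CATSPER1 was only -0.48 (limma, adjusted p = 0.0699). The TOV-21G bound of CATSPER1 was under 1 and gives no fold there. OPN3, an opsin, rose by 1.21 (SE 0.18, adjusted p = 0.0369), from 6.45 and 5.97 to 7.15 and 7.62 in SK-OV-3 and from 10.36 and 10.09 to 11.50 and 11.45 in TOV-21G. It was detected in SK-OV-3 only on the silenced arrays, which bounds its rise there at 1.61-fold or more.

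Of called genes that act in vesicle traffic, the Golgi GTPase RAB6B rose by 0.97, the Rab GTPase-activating TBC1D16 by 0.90 and the dynein adaptor BICD1 by 1.04. The list of vesicle trafficking and Golgi genes had 0 of 23 called, with 5 higher and 1 lower in all 4 comparisons, and 0 higher and 1 lower with median scaling. HS1BP3, an HCLS1-binding protein, rose by 1.16 in the fit, but its SK-OV-3 bound was under 1 and gives no fold there. MAPT, the microtubule-binding protein tau, rose by 1.30 in the fit, and was at 8.10 to 8.62 in SK-OV-3 controls but undetected in those of TOV-21G. In silenced TOV-21G, where 1 array was also undetected, MAPT was at least 1.07-fold higher. SLC35G1, a transporter-like membrane protein, fell by 1.09. Of SLN, CACNB3, CATSPER1, OPN3, RAB6B, TBC1D16, BICD1, HS1BP3, MAPT and SLC35G1, the block left SLN called alone (the others up to 0.0784). SLN kept its call without the SK-OV-3 control, the SK-OV-3 silenced or the TOV-21G control array of experiment 1 and lost it without each other array (adjusted p up to 0.0760). SLC35G1 kept its call only without the SK-OV-3 silenced array of experiment 1 (0.0473), and the rest lost theirs without any 1 array (up to 0.167). On the authors' normalized values SLN changed by 0.64, CATSPER1 by -0.37 (adjusted p = 0.149), HS1BP3 by 0.46 (0.0791), OPN3 by 0.79, RAB6B by 0.59, BICD1 by 0.65, MAPT by 0.67 and SLC35G1 by -0.62. With median scaling the adjusted p was 0.120 for CACNB3, 0.0935 for RAB6B, 0.103 for TBC1D16 and 0.0702 for BICD1.

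Of the remaining called genes, OCEL1, an occludin/ELL domain gene, rose from 10.05 and 10.08 to 10.999 and 11.33 in SK-OV-3 and from 10.32 and 10.30 to 11.53 and 11.82 in TOV-21G. The control arrays of both lines lay close together, below every silenced array, and the shared change was 1.23 (SE 0.16, adjusted p = 0.0314). MXRA7, a matrix remodelling associated gene, rose by 1.23 and NRBP2, a pseudokinase, by 1.09. LRRN4, a leucine-rich repeat membrane protein, was undetected on all silenced arrays, at least 1.06-fold lower in SK-OV-3 and 1.504-fold in TOV-21G. In SK-OV-3, 1 control array was itself undetected for LRRN4. CCDC134, a secreted coiled-coil protein, fell by 0.93. Of these 5, LRRN4 kept its call with the block (0.0313), and MXRA7 had an adjusted p of 0.0504. OCEL1 (0.0400), NRBP2 (0.0438) and LRRN4 (0.0410) kept their calls only without the SK-OV-3 silenced array of experiment 1, and MXRA7 and CCDC134 lost theirs without any 1 array (up to 0.149). On the authors' normalized values LRRN4 changed by -0.45 (adjusted p = 0.0877) and CCDC134 by -0.63, and NRBP2 had an adjusted p of 0.0753 with median scaling. The 9 unnamed called probes, 5 higher and 4 lower, are not described as genes. ACOX2, BICD1, CACNB3, CATSPER1, HS1BP3, LRRN4, MAPT, PRELID2, TBC1D16 and ZNF580 lay outside the rule for named genes and were named after their values were seen.

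Among gene lists with 10 or more tested members, lipid synthesis held the highest shares of genes higher in all 4 comparisons, where 14.4% of all genes were higher and 14.9% lower. The lists were written with earlier results of these data known, and their counts are descriptions. Of 12 tested genes of cholesterol synthesis, 8 were higher and 2 lower in all 4, with a median shared change of 0.67 against -0.01 for all genes, and 1 (HMGCS1) was called. DHCR7, the last enzyme of the Kandutsch-Russell route, had a shared change of 0.78 (adjusted p = 0.0762), lanosterol synthase LSS 0.81 (0.0863) and mevalonate kinase MVK 0.76 (0.0949). The exceptions were EBP, a sterol isomerase, with -0.69, and PMVK. Of 12 genes of fatty acid synthesis, 8 were higher and 0 lower, with a median of 0.49 and 0 called. The stearoyl-CoA desaturase SCD had 0.86 (adjusted p = 0.0609), the desaturase FADS2 0.87 (0.0973), fatty acid synthase FASN 0.53 (0.135) and SREBF1, which encodes the transcription factor SREBP-1, 0.60 (0.211). SCD had same-numbered changes of 0.84 and 0.62 in SK-OV-3 and 0.81 and 1.15 in TOV-21G. Without 1 array the medians ranged from 0.60 to 0.70 for cholesterol synthesis and from 0.39 to 0.54 for fatty acid synthesis.

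The list of lysosome and autophagy genes had 15 of 35 higher and 1 lower in all 4 comparisons, a median of 0.27 and 1 call, CTSF. Cathepsins H and D had shared changes of 0.75 (CTSH, adjusted p = 0.0762) and 0.65 (CTSD, 0.0973), and the autophagosome protein MAP1LC3B had 1.0 (0.0965). ATG7, the E1-like enzyme of autophagy, was the exception with -0.34. Of 10 immediate early and AP-1 factors, 5 were higher and 1 lower, with a median of 0.67 and FOSB called. ATF3, a stress-induced factor, had 1.16 (adjusted p = 0.0809), KLF6 0.99 (0.110) and FOSL1 -0.57 (0.287). ATF3 was undetected on the SK-OV-3 control arrays and on 1 silenced SK-OV-3 array. Its SK-OV-3 bound was under 1 and gives no fold there. Among 11 genes of the NRF2 oxidative stress list, 4 were higher and 1 lower, with HMOX1 called and a median of only 0.03. TXNRD1, cytosolic thioredoxin reductase and like HMOX1 a known NRF2 target, had -0.83 (adjusted p = 0.0556) and NQO1 0.32 (0.397). Members of that list thus had shared changes of opposite sign. Heat shock proteins and chaperones had 5 of 18 lower and 2 higher (median -0.31), and the ER unfolded protein response 5 of 14 lower and 1 higher (median 0.02). The ATF4 amino acid response list held 3 of 19 higher (15.8%) and 2 lower (10.5%), with a median of 0.10. The median of the AP-1 list was 0.36 without the SK-OV-3 silenced array of experiment 2.

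Mitosis and DNA replication lists held no gene that was higher in all 4 comparisons. Of 38 kinetochore, spindle and mitosis genes, 20 were lower in all 4 and all 38 had a shared change below 0, with a median of -0.90, yet 0 were called. The median change of this list was -0.08 and -0.15 in the 2 SK-OV-3 experiments and -1.30 and -1.74 in the TOV-21G experiments. AURKA, the Aurora A kinase, was at 14.06 and 14.17 in SK-OV-3 controls, 13.43 and 13.18 in silenced SK-OV-3, 13.85 and 13.76 in TOV-21G controls and 11.55 and 11.50 in silenced TOV-21G. Both lines were lower without overlap, by unequal amounts, and its shared change was -1.54 (SE 0.28, adjusted p = 0.0595). The securin PTTG1 was closest to a call, with changes of -0.60, -0.86, -0.87 and -0.95 and a shared change of -0.82 (adjusted p = 0.0520). Of 40 replication genes, 13 were lower in all 4 and the median was -0.66, again with 0 called. Its median in the single comparisons was -0.40 and 0.10 in SK-OV-3, so of opposite sign, and -1.10 and -1.23 in TOV-21G. The ribonucleotide reductase subunit RRM2 had -1.54 (adjusted p = 0.0908) and the origin recognition subunit ORC1 -1.38 (0.0911). Of 25 DNA damage repair genes, 9 were lower, with a median of -0.35; BARD1, the partner of BRCA1, had -1.14 (adjusted p = 0.102). Without the TOV-21G silenced array of experiment 2 the medians were -0.59 for mitosis, -0.51 for replication and -0.22 for repair.

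Genes of nuclear transport, the pathway in which CSE1L acts, were more often lower than higher. With CSE1L left out, 6 of 11 export receptors and Ran system genes were lower in all 4 comparisons and 0 higher, with a median of -0.28. XPO7 had a shared change of -0.75 (adjusted p = 0.0911), XPO5, the exporter of microRNA precursors, -0.59 (0.164) and RAN -0.53 (0.217). Of 25 nucleoporins, 10 were lower and 0 higher, with a median of -0.26; NUP35 had -0.91 (adjusted p = 0.0908). Among 13 import receptors, 2 were higher and 1 lower. KPNA4, an importin alpha and so a cargo of CSE1L, had 0.61, 0.82, 1.32 and 1.25 in the 4 comparisons and a shared change of 1.0 (adjusted p = 0.0792). IPO13 had 0.83 (0.0937). None of these genes besides CSE1L was called. The medians were -0.17 for export and Ran genes and -0.16 for nucleoporins without the TOV-21G silenced array of experiment 2.

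In ribosome biogenesis 9 of 21 genes were lower in all 4 comparisons and 0 higher, and the nucleolar methyltransferase fibrillarin, FBL, had -0.72 (adjusted p = 0.0911). The spliceosome list had 10 of 38 lower and 2 higher, and the ribosomal protein genes had 7 of 46 lower (15.2%, near the 14.9% of all genes) and 1 higher with a median of 0.00. Of 14 ERK output genes, 3 were lower, namely ETV4 (-1.67, adjusted p = 0.0911), ETV5 (-0.995, 0.112) and CCND1 (-0.81, 0.131), and 0 higher. Among 17 p53 targets, 4 were higher and 0 lower, and CDKN1A had a shared change of 0.35 (0.628). Of 7 genes of the MYC, MAX and MXD network, 2 were higher, MXD4 (1.13, 0.0908) and MAX (0.66, 0.0949). The hypoxia and glycolysis list had 0 of 17 in either direction and the interferon list 1 of 16 lower. Median scaling lowered the list medians by unequal amounts, except that of the NRF2 oxidative stress list, which went from 0.03 to 0.06. The nucleoporin median went from -0.26 to -0.40 and that of the respiratory chain from 0.03 to 0.02. Relative to the median of all genes, cholesterol synthesis was then at 0.65 and mitosis at -0.89. With median scaling the number higher in all 4 was 6 of 12 for cholesterol synthesis and 5 of 12 for fatty acid synthesis. It was 7 of 35 for lysosome and autophagy. Among the 17 p53 targets, 2 were then higher and 2 lower.

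**Figure D4:**
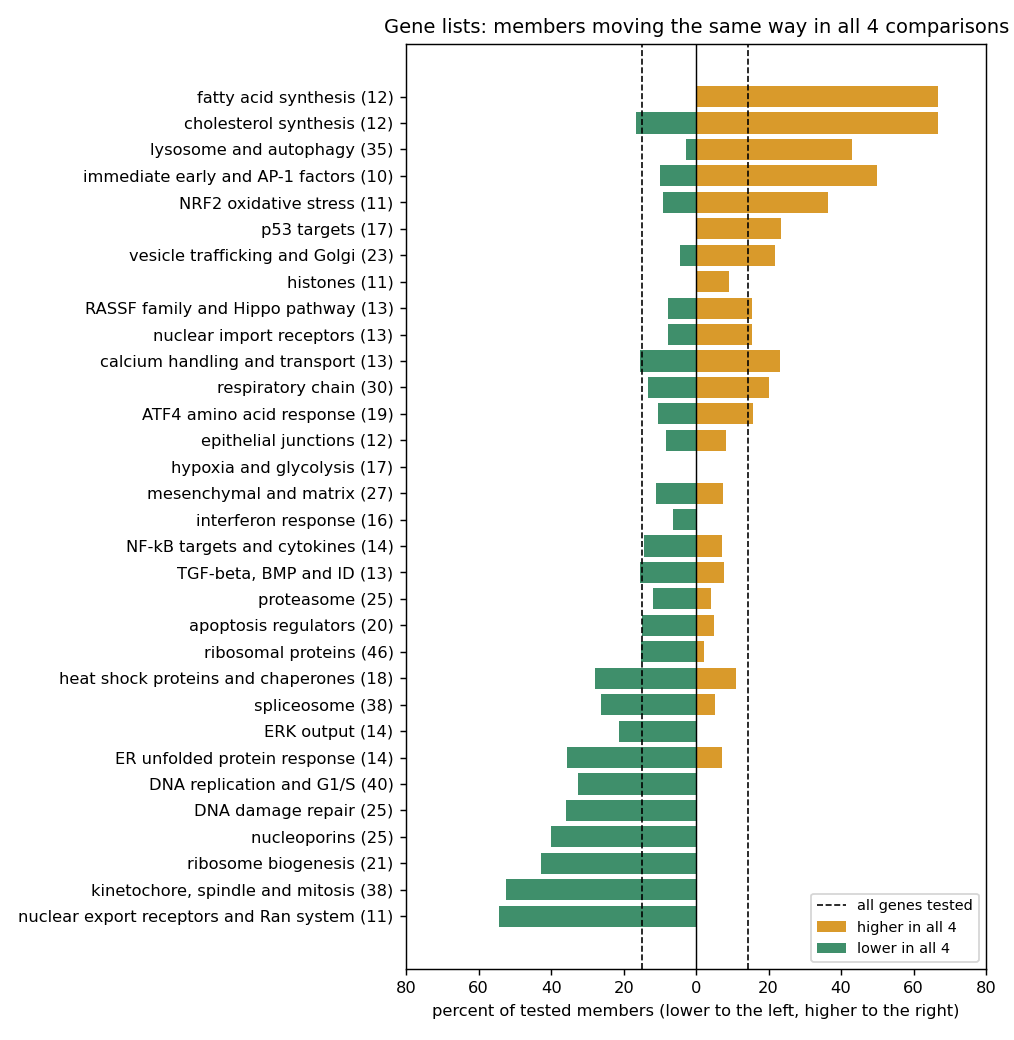
Percent of the tested members of each gene list (tested number in parentheses, lists with 10 or more) that were higher (orange, right) or lower (green, left) in all 4 same-numbered comparisons. Dashed lines mark all genes tested, 14.4% and 14.9%; lipid synthesis lists reach 66.7% higher, and the mitosis list 52.6% lower.

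Sizes of the shared changes were compared between lines in the fit with 4 group means. TOV-21G alone had 298 calls, of which 180 moved the same way in all 4 comparisons and 35 were among the 46; SK-OV-3 alone had 1. The difference of the changes between lines was called by limma for 0 genes, with 947 (10.1%) at an unadjusted p below 0.05, and for up to 11 genes under other settings. At that unadjusted level the 2750 held 164 and the 46 held 2. The 2750 were selected for the same direction in both lines, and the p-values of the 46 include any line difference. Such selection lowers these counts, and nothing is concluded from them. The change was larger in TOV-21G for 29 of the 46 and in SK-OV-3 for 17. Taken as TOV-21G minus SK-OV-3, the difference in change was -1.52 on the log2 scale for CSE1L (adjusted p = 0.621), -1.47 for AURKA (0.172) and -1.74 for RRM2 (0.208). These differences missed the threshold, which does not show that the lines responded alike.

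Other probes of the same genes gave a further reading of direction, though from the same RNA samples. All 7 other measured probes of called genes, for CDC25A, FIGNL1, H2BC5, MXRA7, RASSF1 and ZNF580, had the sign of the chosen probe in all 4 comparisons. The second H2BC5 probe had a shared change of 1.25 and the second CDC25A probe one of -0.80. Some agreements were slight, with 0.0062 for ZNF580 in SK-OV-3 experiment 2 and 0.07 for MXRA7 in SK-OV-3 experiment 1. In the limma fit over all probes, the other probes of CDC25A, FIGNL1, MXRA7 and ZNF580 were not called (adjusted p 0.0620 to 0.379). Of 238 other probes of genes higher in all 4, 94 (39.5%) were higher in all 4 as well and 7 were lower in all 4. Of 239 other probes of the lower genes, 93 (38.9%) were lower in all 4 and 7 were higher in all 4. For probes of genes that had not moved alike, the shares were 8.80% and 8.41% in the higher and lower directions.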

How the data were processed

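Total RNA of SK-OV-3 and TOV-21G cells, taken 72 h after siRNA transfection, was measured on 8 Illumina expression arrays, 2 per group. Per the labels and file headers, the deposited table holds non-normalized bead intensity with a detection p-value per probe and array, made with BeadStudio 2 per the submitters' processing notes. A further table holds intensity that the authors had normalized; how is not given in the sources used here, and it served as an alternative. From the non-normalized intensity, normexp correction from the detection p-values (offset 16), quantile normalization and log2 were computed with limma 3.58.1 in R 4.3.3. Probes with a detection p below 0.01 on at least 2 arrays were kept (10888 of 24531), and the probe with the highest mean stood for a gene. Of all probes, 21838 had 1 symbol in GEO's platform annotation and 2693 none; 8373 named genes and 1004 unnamed probes were tested. limma fitted line plus treatment (5 residual and 3.98 prior degrees of freedom) with Benjamini-Hochberg adjustment over all 9377, two-sided, at 0.05; line-specific changes came from 4 group means. The fit was tested on simulated data. Same-numbered arrays deviated together from their group means (correlations 0.13 in SK-OV-3 and 0.56 in TOV-21G, 1 pair of arrays each), so same-numbered arrays of a line were treated as pairs, which entered as a block in an alternative.

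The genes described, the lists and the rule for named genes were chosen with earlier results of these data known. The rule named CSE1L, the called genes with the largest changes (15) and smallest p (8) in each direction that moved alike in all 4 comparisons and were detected on all 4 arrays of a treatment, and up to 4 members of each list. Alternatives were another background correction, scaling, filter, probe choice, spread estimate or threshold, the authors' values, the block, and leaving out each array. Promoters are RefSeq's, matched by symbol for 28 of the 37 called named genes. Python 3.11.15 with matplotlib 3.10.9 drew the figures.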

Additional observations from a re-analysis of the deposited data

How the results depend on the processing

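The count of 46 called genes, all of which also moved the same way in all 4 comparisons, was 9 with the replicate block, in which same-numbered arrays of a line were paired. It was 199 with 4 group means (176 of them moving the same way), 185 without background correction, 74 with an offset of 50, 146 on the authors' normalized values, 97 with detection on all 8 arrays, 216 with a trended and robust spread and 1 at an adjusted p below 0.01. Without 1 array it ranged from 1 to 21. Without a detection filter it was 33, with all probes 56 and with median scaling 69, within 1.5 times of 46. Requiring the same direction in all 8 comparisons within lines gave 1525 genes in place of 2750, and crossing the experiment numbers 2072. The difference between lines, with 0 calls, had 5 without background correction, 10 on the authors' values, 1 with detection on all 8 arrays and 11 with a trended and robust spread. No called change reversed in the alternatives run, though only those that processed the intensities differently could have reversed one. Medians of lists near 0 changed sign in some alternatives. Histones went from 0.07 to as low as -0.21 and the ER unfolded protein response from 0.02 to -0.10. Nuclear import receptors went from -0.05 to 0.02. RASSF1 alone kept its call in all 19 alternatives. Slide as a block was not run, since no slide is given. Genes undetected in a group, 14 of the 46, are limited by signal over background.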
